A study of Homo sapiens with 6 samples.

Results

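The BCL2 family apoptosis genes are 10 genes whose proteins set the threshold for permeabilisation of the mitochondrial outer membrane. They were taken from the deposited table by gene name, and each of the 10 names stood on a single row among the 60612 genes. The cells were SH-SY5Y, an established line from a human neuroblastoma, sampled as 3 libraries after infection with a control vector (a stuffer construct) and 3 libraries whose labels give overexpression of CDKN2B-AS1, a long noncoding RNA next to the CDKN2A and CDKN2B genes. The labels name no promoter, clone or time after infection. The column names carry the tag LVx1 for the control vector and LVx2 for the labelled overexpression, which no label explains, so any difference in handling that these tags mark cannot be told apart from the group. Separate cultures for the 3 libraries of a group are not stated, and the p-values may therefore rest on technical spread alone. Values of a group are listed below in the order of its replicates 1, 2 and 3.

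Cells commit to intrinsic apoptosis when BAX and BAK1 oligomerise in the outer membrane of mitochondria and release cytochrome c. BCL2, BCL-XL (encoded by BCL2L1) and MCL1 hold these pore formers in check by binding them or their activators in a groove. The BH3-only proteins, here BID, BAD, BIM (BCL2L11), PUMA (BBC3) and NOXA (PMAIP1), report damage or lost survival signals by inserting a short helix, the BH3 domain, into that groove. Much of this control is exerted on the proteins, by cleavage, phosphorylation and degradation, which mRNA levels do not show.

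The members share the BH3 helix, which the choice by name did not use, so the coding bases of that stretch are shown for all 10. Each line gives 48 bases of the reference coding sequence from GENCODE v29 (GRCh38), 5′ to 3′ on the gene's own strand. Capitals mark the 18 bases of the BH3 core, and 5 codons are shown on each side.

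BCL2 at chr18:63318346-63318393 (minus strand): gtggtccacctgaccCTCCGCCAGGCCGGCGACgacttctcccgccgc
BCL2L1 at chr20:31721919-31721966 (minus strand): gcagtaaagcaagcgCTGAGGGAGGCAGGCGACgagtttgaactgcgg
MCL1 at chr1:150578862-150578909 (minus strand): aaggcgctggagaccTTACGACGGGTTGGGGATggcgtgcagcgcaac
BAX at chr19:48955772-48955819 (plus strand): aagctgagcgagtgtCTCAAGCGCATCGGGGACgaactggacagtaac
BAK1 at chr6:33575384-33575431 (minus strand): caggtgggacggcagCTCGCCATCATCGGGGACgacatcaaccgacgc
BID at chr22:17739412-17739459 (minus strand): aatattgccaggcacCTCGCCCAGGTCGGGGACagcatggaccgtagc
BAD at chr11:64271619-64271666 (minus strand): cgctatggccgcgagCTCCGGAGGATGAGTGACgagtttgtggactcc
BCL2L11 at chr2:111150088-111150135 (plus strand): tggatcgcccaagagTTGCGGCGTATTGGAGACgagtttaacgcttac
BBC3 at chr19:47226576-47226623 (minus strand): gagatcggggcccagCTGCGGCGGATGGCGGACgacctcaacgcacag
PMAIP1 at chr18:59902658-59902705 (plus strand): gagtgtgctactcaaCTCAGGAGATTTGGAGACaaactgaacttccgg

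The core was searched in frame as a leucine codon, 3 codons of any kind, a codon for glycine, alanine or serine, and an aspartate codon, followed by a codon for aspartate, glutamate, glycine, serine or lysine. This pattern was written with the sequences of the members known. It matched exactly 1 place in the coding sequence of each of the 10 members, within a single coding exon each. Without the condition on the codon after the aspartate, BID held 2 matches. Over 19561 coding genes 14.4% held a match, and 6.05% of the 7633 genes whose coding length lay in the members' range of 54 to 350 codons. Of the 18 core bases 3 were the same in all 10 members. The pattern itself fixes these 3, the middle base of the leucine codon and the first 2 of the aspartate codon. The count is therefore the least that the pattern allows. The core begins with leucine and arginine codons in 7 of the 10, among them the BH3-only genes BAD, BCL2L11, BBC3 and PMAIP1, and it has glycine before the aspartate in 8. BCL2 and BCL2L1 shared 13 of the 18 bases, and BAD and BCL2L11 shared 11. These pairs were picked within classes, and BAK1 and BID, from different classes, shared more.

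The levels of the 10 mRNAs spanned more than 2 orders of magnitude. Levels are given in FPKM, fragments per kilobase of gene length per 1000000 assigned fragments. The length is 1 value per gene, such as 1708 bases for BAD and 12612 for BCL2, whichever transcript is expressed. Ranks, ratios and shares between genes are therefore approximate. In the control vector libraries BID was highest at 40.3 ± 0.780 FPKM and BAD next at 38.8 ± 3.72 FPKM, with BAK1 at 26.7 ± 6.14 and BAX at 25.9 ± 1.74 FPKM (SD, n = 3 each). PMAIP1 at 14.8 ± 4.73, MCL1 at 10.3 ± 4.23 and BCL2L1 at 7.79 ± 0.726 FPKM followed, then BCL2L11 at 3.01 ± 1.16, BBC3 at 0.930 ± 0.0699 and BCL2 at 0.187 ± 0.124 FPKM (SD, n = 3 each). The neighbours BID and BAD, BAK1 and BAX, and MCL1 and BCL2L1 did not differ beyond their spread, and their order changed between control libraries. PMAIP1 and MCL1 overlapped in range, though PMAIP1 was the higher within each control library. In FPKM the pro-apoptotic mRNAs of the pore formers, BID and BAD thus stood above each of the 3 anti-apoptotic mRNAs. The gene that names the family was the lowest of the 10. The level of BAD carries a limit, because BAD overlaps GPR137 on the other strand. BAD and GPR137 held nearly equal fragments, 3272 and 3178 in control replicate 1, and fragments may be shared between them.

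**Figure D1:**
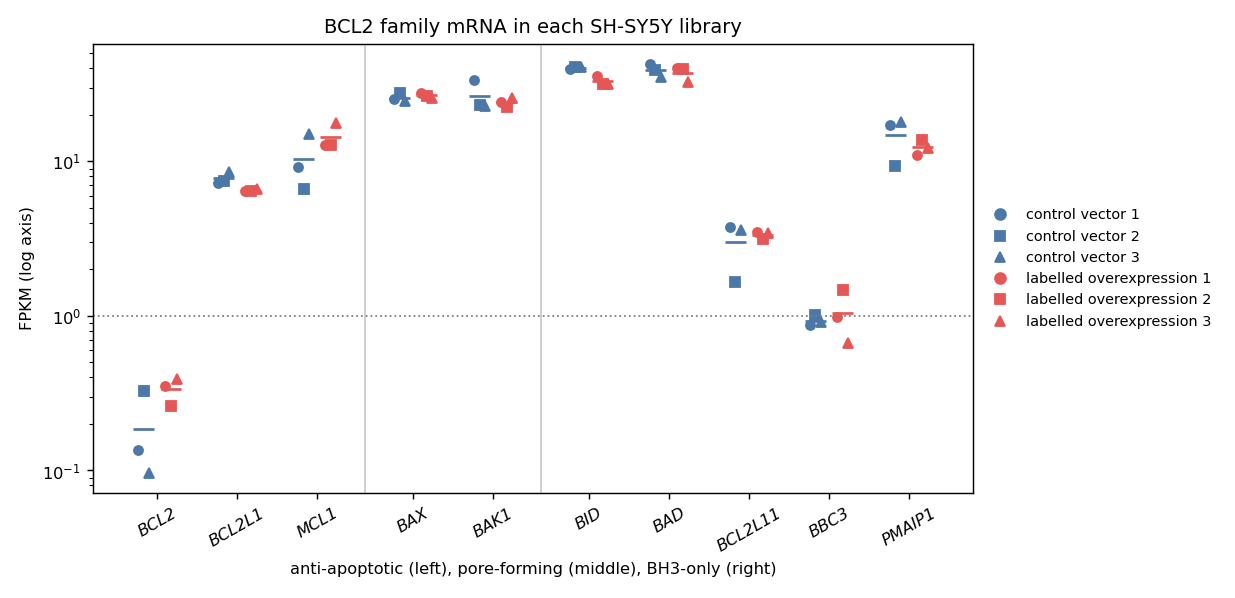
Level of each of the 10 mRNAs in FPKM (log axis) in the 3 control vector and 3 labelled overexpression libraries, with a bar at each group mean and a dotted line at 1 FPKM. BCL2L1 and BID are the members whose labelled overexpression libraries all lie below the controls, and BCL2 lies below 1 FPKM in all 6 libraries.

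The comparison asked which of these mRNAs differ between cells labelled as overexpressing CDKN2B-AS1 and cells with the control vector. In FPKM, BCL2L1 and BID were lower in all 3 labelled overexpression libraries than in all 3 controls. Their means were lower by 16.7% and 17.9% of the control mean. MCL1 and BCL2 had higher means with overlapping groups. None of these differences passed the test across all genes. The summed FPKM of all genes was itself lower, at 381310 to 400215 in the controls and 349703 to 365333 under labelled overexpression. Relative to that sum BID still separated the groups, but BCL2L1 overlapped. With a common total per library the log2 fold changes were -0.14 for BCL2L1 and -0.17 for BID, against -0.24 and -0.28. Of the 10 members, 8 had at least 1 FPKM in at least 3 of the 6 libraries and entered the test, and 0 of the 8 passed at a Benjamini-Hochberg adjusted p of 0.05 (limma-trend on log2(FPKM + 0.5)). Over all 13984 tested genes 1.14% passed, 0.529% higher and 0.608% lower. At an unadjusted limma-trend p under 0.05 there was 1 member, BID, against 17.7% of all tested genes, and limma-voom on fragments recovered from the table called 0 members as well. In FPKM the groups did not overlap for 2 members, BCL2L1 and BID, both lower. Over all tested genes they did not overlap in 24.1%, and 9.9% were lower without overlap. The median log2 fold change of the 8 was -0.08 against 0.05 over all tested genes, and the median size of change, whatever its sign, was 0.20 against 0.21. BBC3 and BCL2 lay below the filter and are described from their values. In bulk RNA, fewer cells that express a gene and less of its RNA per cell cannot be told apart.

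CDKN2B-AS1 itself, the RNA that the label says was raised, had 0.191 to 0.288 FPKM in the controls and 0.304 to 0.353 FPKM in the labelled overexpression libraries, a ratio of means of 1.33. It lay below the filter, with 127 to 353 fragments per library. In the fits without a filter it did not pass (Benjamini-Hochberg adjusted p = 0.683 with limma-trend and 0.532 with limma-voom). The directions given here are therefore those of the labels. The libraries held 20466583 to 48996425 assigned fragments. Of 12 listed markers of adrenergic neuroblastoma 11 reached 1 FPKM in all 6 libraries, with summed levels of 1140 to 1287 FPKM in the controls and 1208 to 1297 FPKM in the labelled overexpression libraries. The exception was TH, tyrosine hydroxylase, which stayed under 1 FPKM in all 6. Of 6 fibroblast markers 4 reached 1 FPKM in all libraries, the list summing to 20.6 to 35.3 and 26.7 to 34.0 FPKM, while COL1A2 stayed under 1 FPKM in all 6. Epithelial markers summed to at most 0.443 FPKM, with KRT5 and KRT14 at 0 throughout, and immune markers to at most 1.93 FPKM, with PTPRC and CD3E among those at 0. CD68 was the immune marker that reached 1 FPKM in at least 1 library. The part of these markers in the results was not tested.

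**Figure D2:**
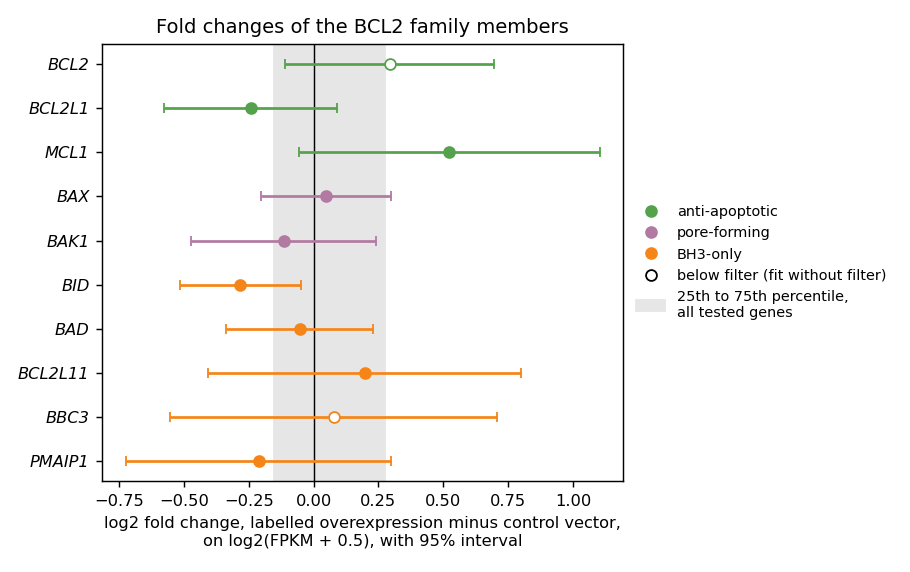
Log2 fold change of each member, labelled overexpression minus control vector, on log2(FPKM + 0.5), with its 95% interval; the grey band runs from the 25th (-0.15) to the 75th (0.27) percentile of all 13984 tested genes. Open points are BCL2 and BBC3, from the fit without a filter. BID is the member whose interval, unadjusted for the number of genes, lies on one side of 0.

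Among the anti-apoptotic members, BCL2L1 (ENSG00000171552, chromosome 20, 31664452 to 31723989, minus strand) encodes BCL-XL, a guardian of neuronal survival. Its level was 7.22, 7.53 and 8.61 FPKM with the control vector and 6.46, 6.40 and 6.58 FPKM under labelled overexpression. The labelled overexpression libraries were nearly equal to each other and all lay below the lowest control in FPKM. Relative to the summed FPKM of all genes, BCL2L1 overlapped between the groups. The log2 fold change was -0.24 with a 95% interval of -0.58 to 0.09 (limma-trend, Benjamini-Hochberg adjusted p = 0.427). The noncoding gene ABALON overlaps BCL2L1 on the other strand, and its level also separated the groups downward, at 4.98 to 6.37 against 3.77 to 4.83 FPKM. ABALON had a log2 fold change of -0.29 (limma-trend, Benjamini-Hochberg adjusted p = 0.434). No source used here says whether the counting used strand. MIR3190 and MIR3191, on opposite strands within BBC3, both had 0.33 fragments in control replicate 3, where BBC3 had 126.33. Both had 0.67 in labelled overexpression replicate 2, but 1.17 and 0.67 in control replicate 2. Fragments there thus appear split across strands. BCL2L1 and ABALON had 1367.5 and 451.5 fragments in control replicate 1, but 1354.0 and 438.5 in labelled overexpression replicate 3. Fragments of this pair could therefore not be told apart, and the lower level of ABALON is not separate evidence.

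MCL1 (ENSG00000143384, chromosome 1, 150560895 to 150579738, minus strand) encodes an anti-apoptotic protein of very short lifetime. It stood at 9.27, 6.67 and 14.9 FPKM with the control vector and at 12.8, 12.7 and 17.7 FPKM under labelled overexpression. Control replicate 3 lay above 2 of the 3 labelled overexpression libraries, and the controls ranged 2.24-fold among themselves. MCL1 had the largest log2 fold change of the 8 tested members, 0.52 with a 95% interval of -0.06 to 1.104 (limma-trend, Benjamini-Hochberg adjusted p = 0.325). Of all tested genes, 8.85% had a fold change as high or higher. The value moved most with the controls: it was 0.26 without control replicate 2 and 0.82 without control replicate 3 (limma-trend, Benjamini-Hochberg adjusted p = 0.609 and 0.0838).

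BCL2 (ENSG00000171791, chromosome 18, 63123346 to 63320128, minus strand), the founding survival gene of the family, was the least abundant member. Its level was 0.135, 0.328 and 0.0968 FPKM with the control vector and 0.351, 0.260 and 0.392 FPKM under labelled overexpression, resting on 53 to 242 fragments per library. Control replicate 2 lay within the range of the labelled overexpression libraries, and the other controls lay below it. BCL2 averaged 0.187 ± 0.124 FPKM with the control vector and 0.334 ± 0.0677 FPKM under labelled overexpression (SD, n = 3 each), 1.79 times as much, with an exact two-sided permutation p of 0.2, where 3 libraries against 3 can give no less than 0.1. In the limma-trend fit without a filter the difference was 1.22-fold on the scale with the pseudocount, with a 95% interval of 0.925 to 1.62 (Benjamini-Hochberg adjusted p = 0.607). In limma-voom on recovered fragments without a filter, added after the data were seen, the difference was 2.19-fold with a 95% interval of 1.05 to 4.57 that is not adjusted for the number of genes (Benjamini-Hochberg adjusted p = 0.377). BCL2 is also the longest member, at 12612 bases, and these folds carry no correction for length. With the gene length trend removed, the change in the log2 ratio of BAX to BCL2 was -0.061, against -0.24 before.

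Neither pore-forming member separated the groups. BAX (ENSG00000087088, chromosome 19, 48954815 to 48961798, plus strand) had 25.3, 27.9 and 24.5 FPKM with the control vector and 27.9, 26.5 and 25.9 FPKM under labelled overexpression. The groups overlapped almost wholly, and the log2 fold change was 0.05 with a 95% interval of -0.20 to 0.30 (limma-trend, Benjamini-Hochberg adjusted p = 0.862). In linear terms that interval runs from 0.870-fold to 1.23-fold on the scale with the pseudocount. BAK1 (ENSG00000030110, chromosome 6, 33572547 to 33580293, minus strand) had 33.8, 23.3 and 23.0 FPKM in the controls and 24.3, 22.6 and 25.8 FPKM under labelled overexpression. Control replicate 1 stood above the other 5 libraries, which lay between 22.6 and 25.8 FPKM. The log2 fold change of BAK1 was -0.12 (95% interval -0.47 to 0.24; limma-trend, Benjamini-Hochberg adjusted p = 0.752) and 0.06 without control replicate 1. BAK1 overlaps the pseudogene GGNBP1 on the other strand, which had a log2 fold change of 0.03, and it has a processed copy on chromosome 20, BAK1P1, which had 0.01, so its fragments may be shared in part.

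Of the BH3-only members, BID (ENSG00000015475, chromosome 22, 17734138 to 17774770, minus strand) links death receptors to mitochondria once caspase-8 has cut it. Its level was 39.4, 40.8 and 40.7 FPKM with the control vector and 35.5, 31.8 and 31.8 FPKM under labelled overexpression. The controls differed from each other by 1.04-fold at most, and each labelled overexpression library lay below them. The log2 fold change was -0.28 with a 95% interval of -0.52 to -0.05 before adjustment (limma-trend, unadjusted p = 0.0229, Benjamini-Hochberg adjusted p = 0.207). Leaving out any 1 library gave -0.33 to -0.26. Of all tested genes, 13.7% had a fold change as low or lower. These levels rest on 2877 to 7849 fragments per library.

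The pattern of BID over the 6 libraries was compared with that of 7404 other tested genes with a mean of at least 5 FPKM. The 4 most alike by Pearson's r on the log2 scale were RPL35A (0.993) and RPS20 (0.993), which encode proteins of the cytosolic ribosome, the ribosomal protein pseudogene RPS3AP47 (0.992), and TTI2 (0.990), a cochaperone of large kinases. All these values share the same 6 libraries and their 2 groups, and 105 genes exceeded 0.95. RPL35A stood at 147 ± 2.64 FPKM in the controls and 104 ± 12.5 FPKM in the labelled overexpression libraries (SD, n = 3 each).

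BAD (ENSG00000002330, chromosome 11, 64269830 to 64284704, minus strand), a sensitizer held inactive by growth factor signalling, had 42.5, 38.9 and 35.03 FPKM in the controls and 40.1, 39.6 and 32.5 FPKM under labelled overexpression. The groups overlapped, with a log2 fold change of -0.05 (95% interval -0.34 to 0.23; limma-trend, Benjamini-Hochberg adjusted p = 0.868). The sign of BAD turned with the scaling and with single libraries left out. BAD overlaps GPR137 on the other strand, which had a log2 fold change of -0.06, so the fragments of this pair could not be told apart.

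BCL2L11 (ENSG00000153094, chromosome 2, 111119378 to 111168445, plus strand) encodes BIM, which is induced when neurons lose trophic support. It had 3.74, 1.67 and 3.61 FPKM with the control vector and 3.48, 3.14 and 3.43 FPKM under labelled overexpression. Without control replicate 2, which was the lowest of the 6 libraries, the log2 fold change was -0.12, against 0.20 with all libraries (limma-trend, Benjamini-Hochberg adjusted p = 0.801 and 0.750). With the gene length trend removed BCL2L11 had 0.09. PMAIP1 (ENSG00000141682, chromosome 18, 59899996 to 59904305, plus strand) encodes NOXA, an ATF4 target that binds MCL1 by preference. It had 17.2, 9.40 and 17.97 FPKM in the controls and 10.9, 13.7 and 12.2 FPKM under labelled overexpression. Control replicate 2 was the lowest of the 6 libraries, and control replicates 1 and 3 were the highest. The log2 fold change of PMAIP1 was -0.21 (95% interval -0.72 to 0.30; limma-trend, Benjamini-Hochberg adjusted p = 0.674), and -0.50 without control replicate 2 (limma-trend, Benjamini-Hochberg adjusted p = 0.190) and -0.05 without control replicate 3. BBC3 (ENSG00000105327, chromosome 19, 47220822 to 47232766, minus strand), which encodes PUMA, had 0.870, 1.01 and 0.914 FPKM in the controls and 0.985, 1.47 and 0.673 FPKM under labelled overexpression, with an exact two-sided permutation p of 0.8. The labelled overexpression libraries of BBC3 enclosed the whole range of the controls.

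The spread within a group differed between members. The coefficient of variation was larger in the control vector libraries for 7 of the 10 members, against 63.6% of all tested genes. It was 41.1% against 19.8% for MCL1, 38.6% against 5.41% for BCL2L11, 31.9% against 11.4% for PMAIP1 and 66.2% against 20.3% for BCL2. It ran the other way for BBC3, at 7.52% against 38.4%, BID, at 1.94% against 6.48%, and BAD, at 9.59% against 11.4%. Control replicate 2 was the lowest control for 3 members, MCL1, BCL2L11 and PMAIP1, and the highest for 4, BCL2, BAX, BID and BBC3.

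Pro-apoptotic and anti-apoptotic members were then set against each other. The median log2 fold change was -0.08 over the 6 tested pro-apoptotic members and 0.14 over the 2 tested anti-apoptotic members, BCL2L1 at -0.24 and MCL1 at 0.52. The difference of these medians was -0.22, and -0.35 with all 10 members in the fit without a filter. Between single libraries of a group, a score of the same kind had a standard deviation of 0.28. That is a spread of libraries and not the error of a difference between group means, so the difference was not tested. The summed level of the 3 anti-apoptotic mRNAs was 16.6, 14.5 and 23.6 FPKM in the controls and 19.6, 19.4 and 24.7 FPKM in the labelled overexpression libraries. The summed level of the 7 pro-apoptotic mRNAs was 163, 143 and 146 FPKM and 143, 139 and 132 FPKM. Both sums overlapped between the groups. The part of the latter that came from the 5 BH3-only mRNAs was 104, 91.8 and 98.2 FPKM against 91.1, 89.8 and 80.7 FPKM. It did not overlap in FPKM, with control replicate 2 and labelled overexpression replicate 1 nearly equal. Relative to the summed FPKM of all genes, lower under labelled overexpression, the BH3-only part did overlap, with control replicate 2 the lowest. Of the 5, BID alone separated the groups, with means of 40.3 and 33.1 FPKM, while BAD, BCL2L11, BBC3 and PMAIP1 each overlapped. Among single tested genes 9.9% were lower without overlap. BAD, whose fragments may be shared with GPR137, enters the BH3-only and pro-apoptotic sums. As a share, the anti-apoptotic sum was 10.2% to 16.2% of the pro-apoptotic sum in the controls and 13.7% to 18.7% in the labelled overexpression libraries.

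Single ratios of these FPKM values moved in different directions. BAX to BCL2, a ratio often used to describe apoptotic priming, was 187, 85.0 and 253 with the control vector and 79.4, 102 and 66.1 under labelled overexpression. Control replicate 2 lay among the labelled overexpression libraries, and the 2 other controls lay above them. BAX to BCL2L1 ran the other way, at 3.50, 3.70 and 2.85 in the controls and 4.32, 4.14 and 3.93 under labelled overexpression, without overlap. BAX to MCL1 was 2.73, 4.17 and 1.64 against 2.18, 2.08 and 1.46, with overlap.

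MCL1 to BCL2L1 was 1.28, 0.887 and 1.74 in the controls and 1.98, 1.99 and 2.69 in the labelled overexpression libraries, so that MCL1 made up 45.9% to 63.2% of the anti-apoptotic sum in the former and 65.3% to 71.8% in the latter. PMAIP1 to MCL1 was 1.85, 1.41 and 1.202 against 0.853, 1.08 and 0.691. The groups did not overlap in either ratio. These ratios are descriptions of chosen pairs: among all tested genes, the ratio to BCL2L1 did not overlap between the groups for 34.7% and the ratio to MCL1 for 17.4%.

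**Figure D3:**
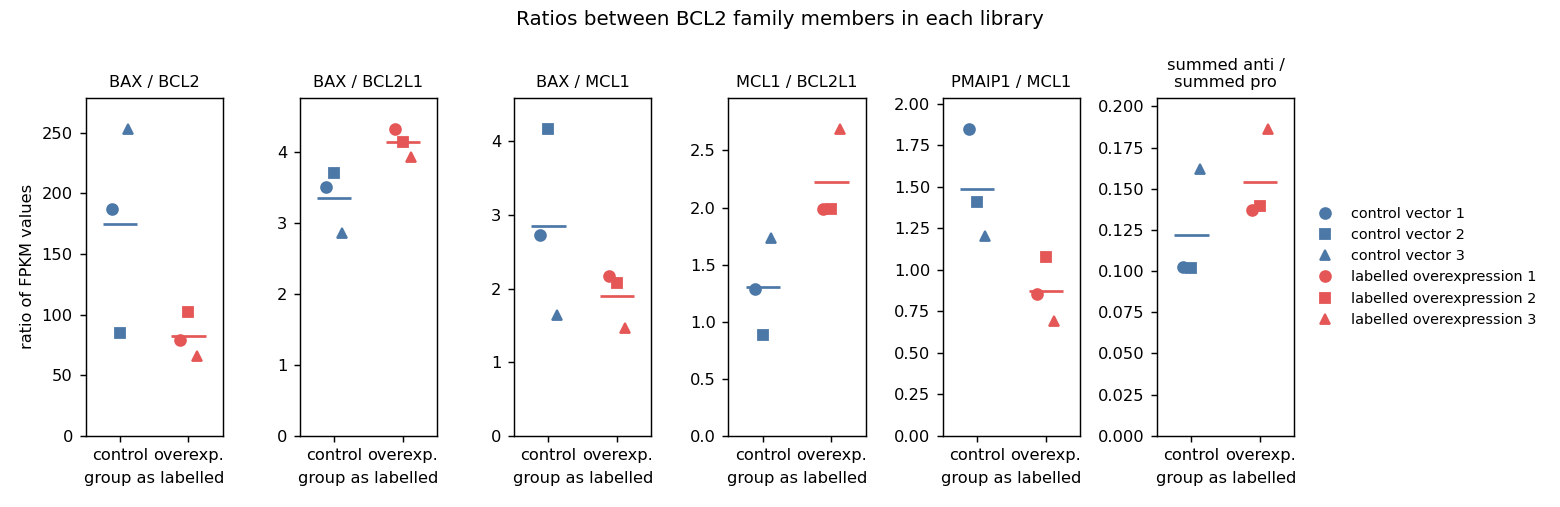
Ratios of FPKM values in each library, with a bar at each group mean; every axis starts at 0 and each panel has its own scale. BAX to BCL2L1 and MCL1 to BCL2L1 lie higher, and PMAIP1 to MCL1 lower, in all 3 labelled overexpression libraries, while BAX to BCL2, BAX to MCL1 and the ratio of the summed classes overlap.

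The other genes of the pathway were read from 7 lists holding 64 genes, of which 45 were high enough to test. Of the 45, 0 passed upward, 1 passed downward and 44 did not pass, beside 1.14% of all tested genes in both directions. At an unadjusted limma-trend p under 0.05 there were 11 of the 45, beside 17.7% of all tested genes, and limma-voom on recovered fragments called 1. The median log2 fold change of the 45 was 0.07, against 0.05 over all tested genes.

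Of 13 other BCL2 family genes 6 were tested and 0 passed, with a median log2 fold change of -0.02. BCL2L12 had 0.34 and stood at 8.24 ± 0.504 against 10.6 ± 1.06 FPKM (SD, n = 3 each) without overlap, though it overlaps IRF3 on the other strand. BNIP3, a mitophagy receptor responsive to hypoxia, had -0.25 at 29.3 ± 2.83 against 24.6 ± 1.13 FPKM, also without overlap. BNIP3L and BCL2L13, which serve in mitophagy as well, had -0.26 and 0.29, and BCL2L13 had 0.16 with the gene length trend removed. BNIP3L and, of the genes named further on, HTRA2, BIRC6, FADD, RIPK1, TNFRSF10B and MYC also overlap other annotated genes. The BH3-only genes BMF, BIK and HRK and the anti-apoptotic gene BCL2A1 had group means below 1 FPKM.

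Downstream of the pore, 9 of 11 genes of the apoptosome and caspase list were tested and 0 passed, with a median of 0.07. Of these, 3 lay higher in all labelled overexpression libraries without overlap, which holds for 14.2% of all tested genes. CASP2, an initiator caspase, was at 13.5, 11.6 and 12.2 FPKM against 17.2, 18.3 and 16.5 FPKM, a log2 fold change of 0.47 (limma-trend, Benjamini-Hochberg adjusted p = 0.117). APAF1, the scaffold that cytochrome c activates, had 0.51 at 1.19 ± 0.195 against 1.90 ± 0.236 FPKM (SD, n = 3 each). With the gene length trend removed CASP2 had 0.33 and APAF1 0.38.

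CASP8, the initiator caspase that cuts BID and is often silenced in neuroblastoma, was nearly absent and is named after its values were seen. It had 4, 0 and 2 fragments with the control vector and 22, 10 and 34 under labelled overexpression, or 0 to 0.0122 against 0.0675 to 0.110 FPKM. The groups did not overlap, and the depth-scaled ratio of the summed 6 and 66 fragments was 13.3 (95% interval 5.81 to 37.6 from the exact binomial, for counting error alone). CASP8 lay below the filter of the test, and in the fits without that filter the Benjamini-Hochberg adjusted p was 0.186 with limma-trend and 0.0792 with limma-voom. CASP10 was listed at 0 in all 6 libraries.

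Of the caspase inhibitors (IAPs) and their antagonists 5 of 8 were tested and 0 passed, with a median of 0.02. BIRC2, which encodes cIAP1, had -0.26 at 8.41 ± 1.03 against 6.90 ± 0.382 FPKM (SD, n = 3 each) without overlap. BIRC5, which encodes survivin, had -0.06 at 170 ± 10.9 against 163 ± 10.1 FPKM. HTRA2 and BIRC6 had 0.22 and 0.32 with overlap, and BIRC6 had 0.099 with the gene length trend removed. Of 8 death receptors and adaptors 4 were tested and 0 passed, namely FADD at 0.29, RIPK1 at 0.25, the TRAIL receptor TNFRSF10B at -0.11 and TRADD at -0.10, all with overlap. RIPK1 had 0.066 with the gene length trend removed. FAS, TNFRSF10A, TNFRSF1A and the caspase-8 inhibitor CFLAR had group means below 1 FPKM.

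All 8 genes of the outer membrane, fission and fusion list were tested and 0 passed, with a median of -0.02. The fusion gene MFN2 was at 16.2, 16.3 and 16.2 FPKM in the controls and 20.9, 18.7 and 20.6 FPKM under labelled overexpression, a log2 fold change of 0.29 (limma-trend, Benjamini-Hochberg adjusted p = 0.236). With the gene length trend removed MFN2 had 0.13. VDAC1, a channel of the outer membrane, had 0.17 without overlap, and VDAC2, which binds BAK1, had -0.07 with overlap, as did MFN1 at -0.15.

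Of 10 transcription factors known to act on BH3-only genes 9 were tested, and 1 passed. This was FOS, an AP-1 subunit, which fell from 27.0 ± 17.1 to 1.56 ± 0.314 FPKM (SD, n = 3 each; log2 fold change -3.58, limma-trend, Benjamini-Hochberg adjusted p = 0.0150). Control replicate 3 held 46.6 FPKM of FOS and the other controls 15.9 and 18.5 FPKM, against 1.196 to 1.76 FPKM under labelled overexpression. The call ended without control replicate 2, without any 1 of the labelled overexpression libraries, in limma-trend without a filter and in limma without the trend, where 0 genes passed in all. It ended also in limma-voom without a filter (Benjamini-Hochberg adjusted p = 0.0717). FOXO3, which induces BCL2L11 and BBC3 when growth factor signalling falls, was at 3.42, 3.77 and 5.04 FPKM in the controls and 7.95, 6.84 and 7.80 FPKM under labelled overexpression. Its log2 fold change was 0.82 without passing (limma-trend, Benjamini-Hochberg adjusted p = 0.0672). TP73 had 0.88 at 1.26 ± 0.333 against 2.71 ± 0.361 FPKM (SD, n = 3 each; limma-trend, Benjamini-Hochberg adjusted p = 0.112), and overlaps WRAP73 and TP73-AS1 on the other strand. MYC had -0.38, lower without overlap and without passing. BCL2L11 and BBC3 themselves overlapped between the groups, as given above.

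Of 6 genes that add ubiquitin to MCL1 protein or remove it, 4 were tested and 0 passed, with a median of 0.47. The deubiquitinase gene USP9X had 0.59 at 3.30 ± 0.753 against 5.21 ± 0.775 FPKM, the ligase gene HUWE1 0.47 at 2.84 ± 0.473 against 4.12 ± 0.398 FPKM, and the ligase adaptor BTRC 0.46 at 5.39 ± 0.916 against 7.56 ± 0.898 FPKM (SD, n = 3 each). All 3 were higher without overlap, as were 14.2% of all tested genes, with limma-trend Benjamini-Hochberg adjusted p of 0.183, 0.245 and 0.224, and both the enzymes that stabilise MCL1 and those that destroy it were among them. With the gene length trend removed they had 0.40, 0.25 and 0.35. FBXW7, another ligase adaptor, had -0.05 with overlap.

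**Figure D4:**
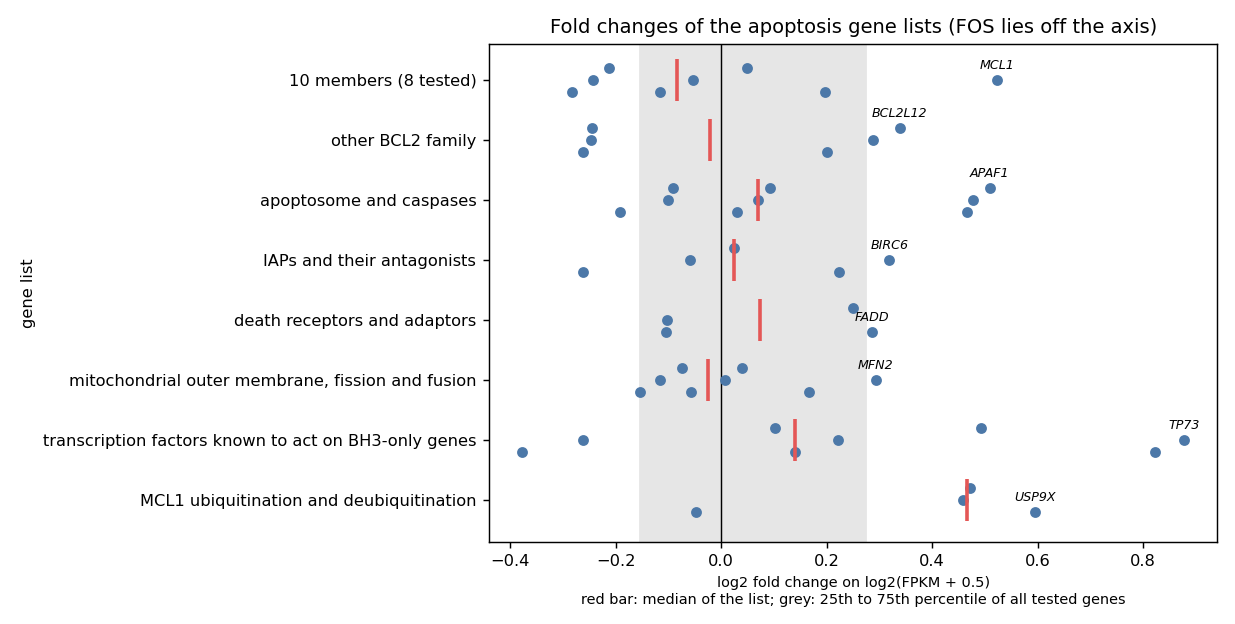
Log2 fold changes on log2(FPKM + 0.5) of the tested genes of each list, with a red bar at each list's median and a grey band from the 25th to the 75th percentile of all tested genes; the highest gene of each list is named, and FOS at -3.58 lies off the axis. The medians run from -0.08 for the members to 0.47 for the 4 genes acting on MCL1 protein.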

How the data were processed

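RNA of 6 SH-SY5Y libraries was sequenced as paired-end reads from SMART-seq cDNA, per the labels' protocols. Builds GRCh38.p13 and hg38 and the tools featureCounts 2.0.1 and STAR 2.7.9 are listed in the submitters' processing notes, which were read as labels. No source used here gives the strand setting. The authors deposited 1 table of FPKM per gene and library with gene length and position, per the file headers. In each library FPKM times gene length (kb) added up to 1000000, and the values fell on steps of 0.01 fragments (tolerance 0.001 fragments, up to 1000 fragments), from which depths of 20466583 to 48996425 fragments were recovered.

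The test was limma 3.58.1 in R 4.3.3 with its trend option, no block and no covariate, applied to log2(FPKM + 0.5) of genes reaching 1 FPKM in 3 or more of 6 libraries. Adjustment was by Benjamini-Hochberg over all 13984 tested genes at 0.05. Fold changes are labelled overexpression minus control vector and understate changes of low genes. The fit was tested on simulated data.

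The members, lists, tests and alternatives were chosen with earlier results of these data known. All 10 members are named, and from each list every gene that passed and up to 4 of smallest p, with others added where a list is described. Some listed genes are not reported here by name, though the counts and medians of their lists include them. Genes overlapping a member are named where tested. BH3 sequences come from GENCODE v29, 1 transcript per gene by annotation rank. Protein and promoter sequences were not used here.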

Additional observations from a re-analysis of the deposited data

How the results depend on the processing

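Of the 10 members, 0 passed in each of the 18 alternatives (limma, Benjamini-Hochberg), while up to 2 had an unadjusted p under 0.05. BID and BCL2L1 kept negative fold changes in all 18, at -0.33 to -0.17 (adjusted p 0.159 to 0.459) and -0.29 to -0.14 (adjusted p 0.349 to 0.647). MCL1 and BAX kept positive ones at 0.26 to 0.82 (adjusted p 0.0838 to 0.628) and 0.00 to 0.16, and PMAIP1 negative ones at -0.50 to -0.05. BAD turned to 0.057 with a common total per library, 0.013 without control vector replicate 1 and 0.043 without labelled overexpression replicate 3. BAK1 turned to 0.063 without control vector replicate 1. BCL2L11 turned to -0.12 without control vector replicate 2. With single libraries left out BAD ranged from -0.12 to 0.043, BAK1 from -0.21 to 0.063 and BCL2L11 from -0.12 to 0.37. With the common total 181 genes passed upward and 52 downward, against 74 and 85, with median-of-ratios factors 59 and 119, with array weights 149 and 116, and in limma-voom on recovered fragments 79 and 48, or 133 and 39 without its filter. The common total moved the median of all tested genes from 0.05 to 0.15, so BID at -0.17, BCL2L1 at -0.14 and BAD at 0.057 stood below that median there.

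The difference between the classes was -0.41 to -0.07 with single libraries left out and -0.64 in limma-voom without a filter, added after the data were seen, where BCL2 enters. The change in the log2 ratio of BAX to BCL2, -0.24 with the pseudocount of 0.5, was -0.62 with a pseudocount of 0.1, -0.97 without a pseudocount, -0.061 with the gene length trend removed, and -0.33 to -0.17 with single libraries left out. Over all genes, 159 calls became 0 without a filter and without the trend, 269 with at least 1 FPKM in all 6 libraries, 265 with array weights, and 0 to 124 with single libraries left out (124 when control replicate 3 was left out, 3 for control replicate 1, 0 for each of the others); the cause was not tested. At an unadjusted limma p under 0.05 there were 3538 genes without a filter, 2304 without the trend and 1665 to 2826 genes with single libraries left out.

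Deviations of same-numbered libraries from their group means correlated at -0.02, 0.11 and 0.12 across genes, and those of differently numbered libraries at -0.18 to 0.10. Deviations from a mean of 3 libraries are tied to each other. Whether the replicate numbers in the titles pair the libraries could therefore not be decided. With the replicate block 229 genes passed and 0 members, and MCL1 had 0.52 (limma-trend, Benjamini-Hochberg adjusted p = 0.143). BCL2 and BBC3 entered the fits without a filter. Depth limits BCL2, with 53 to 242 fragments per library, and CASP8.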
